A study of Sus scrofa with 22 samples.

Results

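The glandular epithelium (GE) and the luminal epithelium (LE) of the cyclic endometrium were compared within the same animals on Day 12. The comparison used 8 of the 22 libraries of the data set, 4 of GE and 4 of LE, 1 of each from gilts 2, 4, 6 and 13. They were chosen by their labels, and the count tables of GE and LE were joined by NCBI gene ID. The tables list 11676 genes for GE and 11415 for LE, and 10851 genes are in both. The 825 genes listed for GE without LE and the 564 listed for LE without GE could not be tested and are described apart.

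The gilts were prepuberal crossbreeds of German Landrace and Piétrain in which ovulation had been synchronised with PMSG and hCG. The cyclic (control) gilts used here were nonpregnant and had received the supernatant of centrifuged semen, whereas the pregnant gilts (1, 3, 5 and 14) had been inseminated with semen of the same boar. The pregnant gilts serve below as other animals in which the same difference was measured. Cells were cut by laser capture microdissection (LCM) from sections stained with Cresyl violet, so that the compartments were told apart by morphology and not by a marker, and each library was made from RNA of a very small number of cells. Every library is 1 compartment of 1 gilt. In such pools of cells, fewer cells of a type and less RNA per cell cannot be told apart.

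LE is a single layer of cells that lines the uterine lumen and meets the conceptus, while GE forms coiled glands that open into the lumen and secrete the histotroph, the mixture of proteins, ions and nutrients that feeds the conceptus before it attaches. The glands of the pig uterus contain some cells with motile cilia, which are built from axonemal dyneins, radial spokes and central pair proteins under the control of factors such as FOXJ1 and of RFX proteins. Uteroferrin (ACP5), an acid phosphatase that carries iron, is the best known secretory product of the porcine glands.

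The libraries held 2083783 to 3702061 counts in GE and 2628893 to 4020796 counts in LE, and levels are given as CPM (counts scaled to a common library size) after TMM normalization. The floor, taken as 3 counts, corresponds to 0.71 to 1.51 CPM. The LE libraries resembled each other (Pearson r of log2(CPM + 1) across genes 0.942 to 0.965), whereas the GE libraries were less alike (0.716 to 0.923). GE of gilt 6 correlated at 0.951 with LE of the same gilt and at no more than 0.923 with any other GE library. In GE of gilt 2 the 20 fibroblast markers in both tables summed to 62414 CPM, against 5984 to 22317 CPM in the other GE libraries and 16955 to 24158 CPM in LE. The smooth muscle and pericyte markers (8 in both tables) summed to 10622 CPM in GE of gilt 2, to 96.1 to 664 CPM in the other GE libraries and to 594 to 1348 CPM in LE. GE of gilt 13 was lowest for both lists and for the 13 endothelial markers (96.1 CPM, against 526 to 1752 CPM in the other GE libraries and 913 to 1369 CPM in LE). Fibroblast and endothelial markers were thus detected in all libraries labelled as epithelium. Among the leukocyte markers, 6 of 20 were in both tables, including PTPRC, while CD3E, CD2, CD3D, CD8A and MS4A1 are listed in none. The 20 shared epithelial markers summed to 1224 CPM in GE of gilt 2, to 3073 to 3764 CPM in the other GE libraries and to 4493 to 5319 CPM in LE. The 3 S libraries of the cyclic gilts, labelled as stroma, carried these epithelial markers at 4224 to 5312 CPM and fewer fibroblast marker counts (7293 to 12740 CPM) than LE, which goes against their label, and S is not used below as a reference for stroma. The part of these other markers in the differences between GE and LE was not tested, and counts of list members are also given without the gilts that moved them most.

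**Figure D1:**
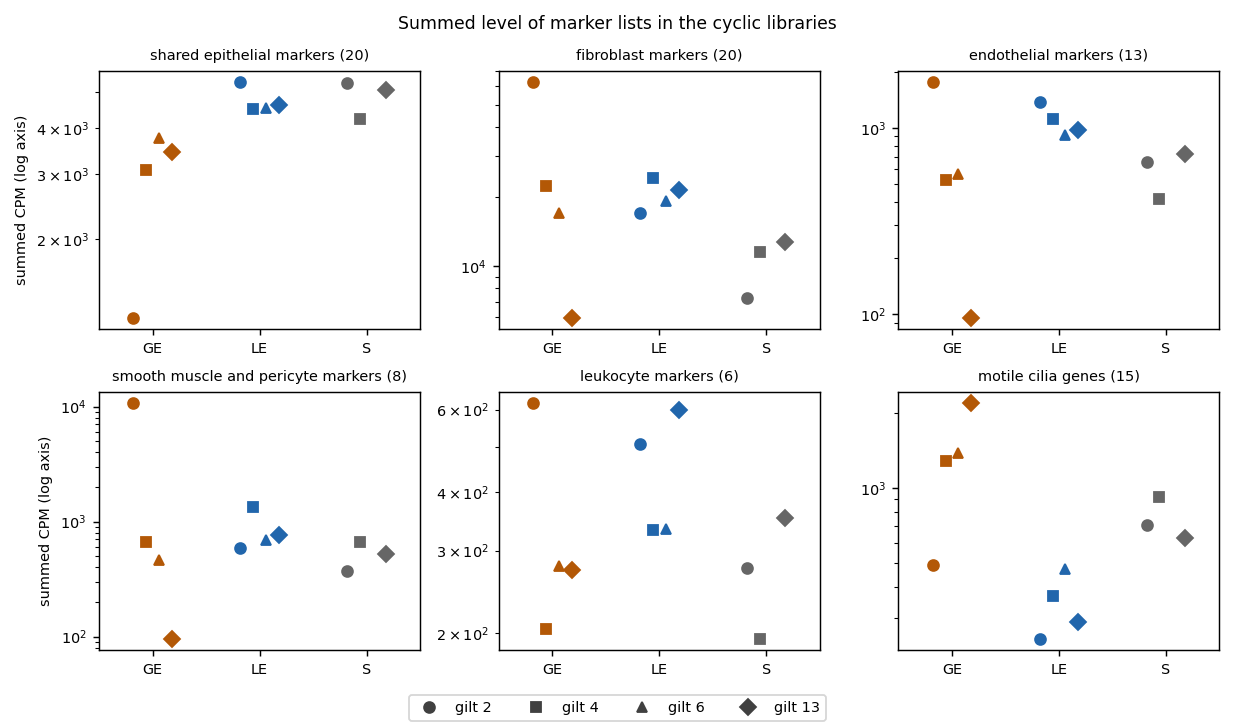
Summed CPM (log axis) of marker lists in each cyclic library of GE, LE and S, with 1 symbol per gilt and the number of genes summed in brackets. GE of gilt 2 stands highest for fibroblast and smooth muscle markers and lowest for epithelial markers. GE of gilt 13 is lowest for fibroblast, endothelial and smooth muscle markers. The sum of the 15 motile cilia genes is higher in GE than in LE of the same gilt in each of the 4 gilts.

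In edgeR with the quasi-likelihood F test and the gilt as a block, 0 of the 10851 genes passed an FDR (Benjamini-Hochberg) of 5%, and the lowest FDR was 0.103. At an unadjusted p value below 0.05 there were 2487 genes (22.9%), 1229 with higher levels in GE (11.3%) and 1258 with higher levels in LE (11.6%). Without gilt 4 this number was 1205 and without gilt 13 it was 1654. The number of genes at 5% FDR depended on how the spread was estimated. The likelihood ratio test of edgeR gave 1171, DESeq2 1117, edgeR without the gilt block 259, voom with a random effect of gilt 310 and voom with a fixed block 0. In simulated data with 200 genes changed by 2 on the log2 scale, the likelihood ratio test called 192 of them and 50 unchanged genes. The quasi-likelihood test called 174 and 8. At a log2 change of 1 the likelihood ratio test called 62 and 33, and the quasi-likelihood test 0 and 0. At a log2 change of 3 the likelihood ratio test called 198 and 66, and the quasi-likelihood test 195 and 15. The likelihood ratio test thus did not hold 5% FDR in simulation, and the quasi-likelihood test exceeded it at a log2 change of 3. The simulated data held no differences between gilts, so they cannot show how either test holds its FDR in data with such differences. DESeq2 was not simulated. When the spread was shared with the 8 libraries of the pregnant gilts (16-library fit), the same contrast in cyclic gilts gave 813 genes (7.49%), 439 higher in GE (4.05%) and 374 higher in LE (3.45%). All 4 GE libraries lay above all 4 LE libraries for 906 genes (8.35%), and all 4 LE libraries above all 4 GE libraries for 843 genes (7.77%). The median difference over all genes was −0.01 on the log2 scale. No gene named below is therefore called by the main test unless stated, and the values are given as measured. Besides the 24 leading genes and the 2 most abundant members of each gene list, the list members named below were chosen after their values were seen. Counts of list members below are to be read beside the shares of all genes given here for p values, the 16-library fit and overlap.

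The 12 genes of lowest p value with higher levels in GE of all 4 gilts were SLCO3A1, C4A, LOC100517809, RGMA, RGS22, DNAH5, FMO1, AFF3, LOC110255743, ZNF704, ELL2 and PITPNC1. Each had an FDR of 0.103 in the main fit and passed 5% in the 16-library fit, and in 10 of the 12 the libraries of GE and LE did not overlap. SLCO3A1, a carrier of organic anions that include prostaglandins (chromosome 7, 86777919 to 87103316), was measured at 66.2, 87.2, 48.5 and 182 CPM in GE of gilts 2, 4, 6 and 13 and at 5.34, 9.09, 8.95 and 10.4 CPM in LE. Every GE library was thus several-fold above every LE library (log2 difference 3.37 ± 0.32 SE). DNAH5, an axonemal dynein heavy chain (chromosome 16, 3114267 to 3366189), had 28.2, 120, 122 and 185 CPM in GE and 1.91, 9.92, 17.5 and 4.98 CPM in LE, the GE library of gilt 2 being the lowest of the GE libraries (3.82 ± 0.44). C4A, complement component C4, stood at 200, 259, 87.5 and 423 CPM in GE and at 24.4, 17.9, 8.95 and 93.7 CPM in LE. The compartments overlapped for C4A because LE of gilt 13 was above GE of gilt 6, although GE was higher within every gilt (3.07 ± 0.31). RGMA, a membrane-anchored guidance molecule and BMP coreceptor, had 76.4 to 198 CPM in GE and 19.8 to 26.8 CPM in LE (2.48 ± 0.28). For RGS22, a regulator of G protein signalling, the range was 71.5 to 226 CPM in GE and 11.05 to 33.2 CPM in LE (2.26 ± 0.25). FMO1, a flavin monooxygenase of xenobiotic metabolism, reached 587 CPM in GE of gilt 2 and 86.0 to 248 CPM in the other GE libraries, against 20.7 to 42.3 CPM in LE (2.93 ± 0.35). AFF3 (1.31 ± 0.16) and ELL2 (1.85 ± 0.23) belong to families of transcription elongation factors, ZNF704 (2.02 ± 0.25) is a zinc finger protein and PITPNC1 (2.75 ± 0.34) transfers phosphatidylinositol. LOC100517809 (3.23 ± 0.35), an uncharacterised protein coding gene, and LOC110255743 (3.53 ± 0.43), a long noncoding RNA on chromosome 11, are known only by their identifiers.

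The 12 corresponding genes with higher levels in LE were COL17A1, COPS9, SEPT6, ATP1B1, MMD, CYP24A1, RCC1L, PPARGC1B, FN3KRP, SMPD1, TMEM35A and SDCBP2, each again at an FDR of 0.103. COL17A1, the transmembrane collagen of hemidesmosomes (chromosome 14, 114959404 to 115007734), had 45.4, 54.3, 65.1 and 35.6 CPM in LE of gilts 2, 4, 6 and 13 and 5.72, 7.56, 17.9 and 4.73 CPM in GE. Its LE libraries were all above its GE libraries, the nearest being GE of gilt 6 (−2.61 ± 0.27). CYP24A1, which inactivates vitamin D metabolites, was measured at 34.3, 19.3, 61.5 and 41.0 CPM in LE and 6.13, 2.02, 21.4 and 3.34 CPM in GE (−2.60 ± 0.40). GE of gilt 6 overlapped with LE of gilt 4. ATP1B1, the beta subunit of the sodium pump, had 277 to 450 CPM in LE and 112 to 262 CPM in GE (−1.18 ± 0.17). SMPD1, the acid sphingomyelinase of lysosomes, was at 70.7 to 183 CPM in LE and 21.7 to 113 CPM in GE (−1.43 ± 0.23). MMD (−1.72 ± 0.26) had 137 CPM in GE of gilt 6 and 42.5 to 45.9 CPM in the other GE libraries, compared with 154 to 249 CPM in LE. COPS9, a subunit of the COP9 signalosome (−1.76 ± 0.22), PPARGC1B, a coactivator of mitochondrial genes (−1.58 ± 0.25), the septin SEPT6 (−1.57 ± 0.22), RCC1L (−1.79 ± 0.28), the ketosamine kinase FN3KRP (−1.22 ± 0.19), TMEM35A (−1.46 ± 0.24) and the PDZ protein SDCBP2 (−1.63 ± 0.27) completed the group. In GE, gilt 6 was the library nearest to LE for each of these genes. Over the 24 leading genes the sign held in every alternative setting, and 24 passed 5% FDR by the likelihood ratio test, by DESeq2 and in the 16-library fit, 15 without the block and 0 whenever a gilt was left out. The genes had been chosen for a low p value and the same sign in every gilt of these same libraries. Their held sign and their calls by other tests are therefore not independent support.

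**Figure D2:**
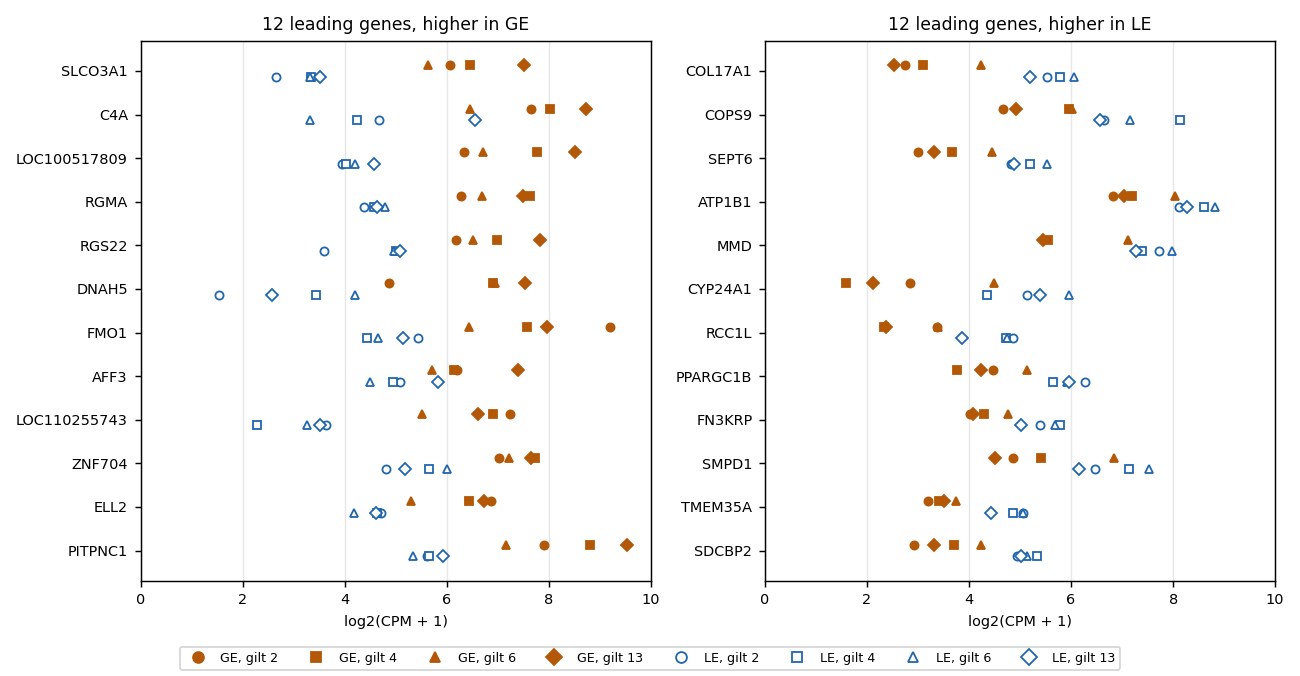
Level in each library, log2(CPM + 1), of the 12 leading genes of each direction. Filled symbols are GE, open symbols LE, and the symbol marks the gilt. GE and LE are separated in 10 of 12 genes in each panel, and among the LE genes the GE library of gilt 6 (triangle) lies nearest to LE.

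The sequence at the annotated gene start (250 bases before to 50 bases after it, Sscrofa11.1) is shown for SLCO3A1 and COL17A1, which lead the directions, and for DNAH5, the cilia gene among the leading genes. The windows were searched on both strands for a core of the X-box bound by RFX factors (GTTGCC), a forkhead motif (TGTTTAC) and a grainyhead motif (AACNNGTT), and capitals mark the matches. Over the 10847 windows of tested genes that could be read, the X-box core occurred in 12.5%, the forkhead motif in 2.59% and the grainyhead motif in 3.13%. Among the 24 leading genes there was 1 match, the X-box core of DNAH5, which starts 149 bases before the gene start. The DNAH5 window is soft-masked as repetitive sequence over 100% of its length in the reference, so the match lies in a repeat.
SLCO3A1, chr7:87103267-87103566, minus strand: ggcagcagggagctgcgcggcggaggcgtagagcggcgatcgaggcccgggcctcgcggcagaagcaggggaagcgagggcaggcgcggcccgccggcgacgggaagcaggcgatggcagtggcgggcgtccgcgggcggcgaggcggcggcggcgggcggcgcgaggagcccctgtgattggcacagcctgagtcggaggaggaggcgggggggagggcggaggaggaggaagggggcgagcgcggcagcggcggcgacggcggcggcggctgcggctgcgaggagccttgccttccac
DNAH5, chr16:3366140-3366439, minus strand: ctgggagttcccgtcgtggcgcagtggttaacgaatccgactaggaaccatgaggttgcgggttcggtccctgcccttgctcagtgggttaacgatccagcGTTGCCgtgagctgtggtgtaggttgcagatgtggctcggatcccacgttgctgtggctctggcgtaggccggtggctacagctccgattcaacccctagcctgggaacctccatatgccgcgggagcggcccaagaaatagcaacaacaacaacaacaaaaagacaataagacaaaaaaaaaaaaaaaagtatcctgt
COL17A1, chr14:115007685-115007984, minus strand: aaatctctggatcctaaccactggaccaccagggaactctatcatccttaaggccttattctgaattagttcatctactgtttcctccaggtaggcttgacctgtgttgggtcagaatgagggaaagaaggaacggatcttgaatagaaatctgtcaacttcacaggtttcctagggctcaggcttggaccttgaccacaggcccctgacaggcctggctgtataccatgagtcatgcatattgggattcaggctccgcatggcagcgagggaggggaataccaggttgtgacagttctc

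Genes of motile cilia had the sign of GE throughout. Of 47 genes in this list, 15 were in both tables, 28 were listed for GE without LE, 0 for LE without GE and 4 in neither. For all 15 joined genes the fitted difference was towards GE (median 1.602, against −0.01 over all genes), 13 had a p value below 0.05, 12 passed 5% FDR in the 16-library fit and 7 did not overlap between compartments. Summed over the 15 genes, the levels were 489, 1286, 1379 and 2176 CPM in GE of gilts 2, 4, 6 and 13 and 248, 368, 472 and 289 CPM in LE. GE was higher within each gilt, but GE of gilt 2 only slightly exceeded LE of gilt 6. Without gilt 2 all 15 genes had a p value below 0.05 (median 2.13). Without gilt 4 it was 12 (median 1.69), and without gilt 6 also 12 (median 1.72). Without gilt 13 it was 13, and the median fell to 1.28. HYDIN, a central pair protein, had 63.4, 215, 295 and 528 CPM in GE and 14.1, 26.2, 57.2 and 7.59 CPM in LE (3.29 ± 0.72). RFX3, a transcription factor of ciliated cells, was at 92.8, 160, 164 and 214 CPM in GE and 49.5, 76.3, 78.4 and 77.3 CPM in LE (1.13 ± 0.16). The dyneins DNAH7, DNAH9 and DNAH11 had differences of 1.80 to 1.87, and CFAP44 had a difference of 2.68 ± 0.58. In gilt 2 the members CCDC39, CCDC40 and DNAH11 were lower in GE than in LE, which was not seen in the other gilts.

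The 28 cilia genes listed for GE without LE include FOXJ1, the main regulator of motile cilia, the radial spoke gene RSPH4A, SPAG17 and the intermediate chains DNAI1 and DNAI2. FOXJ1 was at 8.58, 33.3, 40.4 and 108 CPM in GE of gilts 2, 4, 6 and 13. RSPH4A was at 8.58, 49.4, 43.6 and 103 CPM. Together these 28 genes summed to 106, 482, 529 and 1044 CPM, so that gilt 2 was lowest and gilt 13 highest, in the same order as for the joined genes and opposite to the order of the fibroblast markers at both ends. Gene start windows held the X-box core in 13 of the 43 listed cilia genes (30.2%, against 12.5% of all windows), and outside soft-masked sequence in 11 (25.6% against 10.6%). Of the 28 genes listed for GE without LE, 10 held it (35.7%), all outside soft-masked sequence. Of the 15 joined genes 3 held it (20%), 1 of them outside soft-masked sequence (6.67%). The shares of all windows were counted over genes in both tables, to which these 28 genes do not belong.

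**Figure D3:**
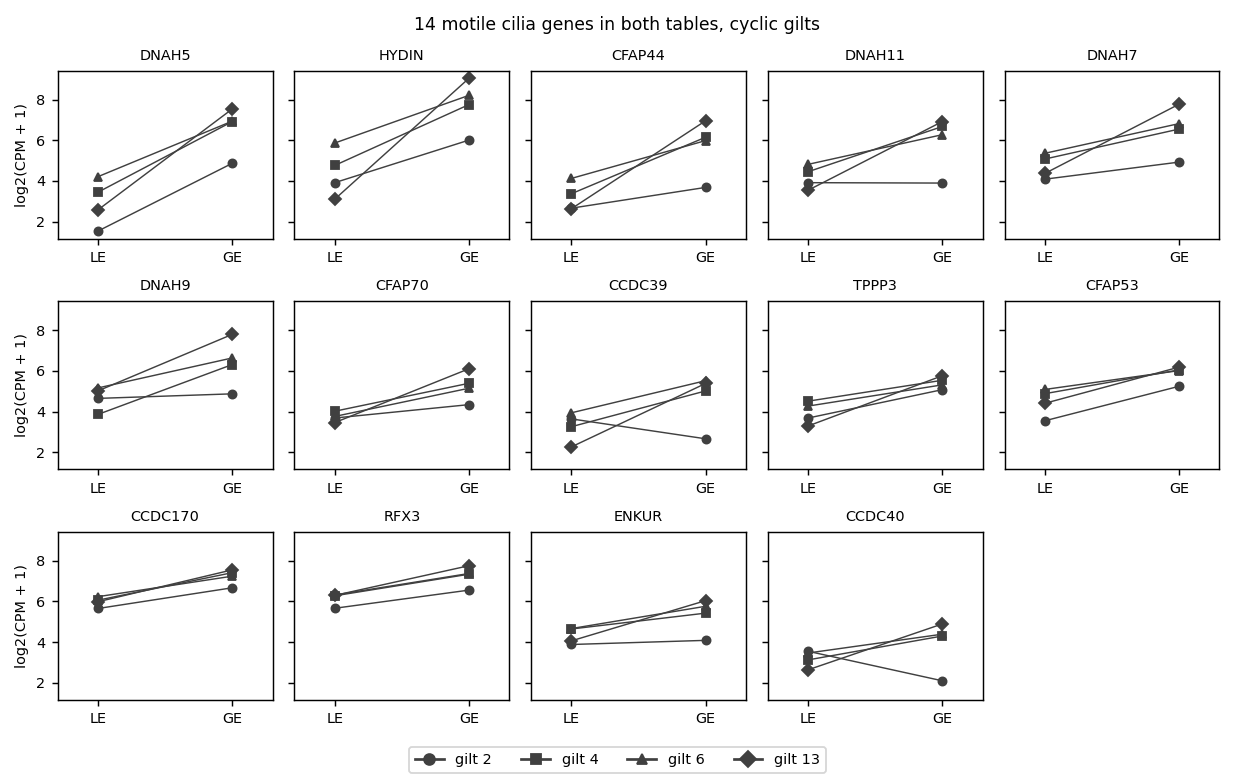
Level, log2(CPM + 1), of 14 of the 15 motile cilia genes in both tables, LE on the left and GE on the right of each panel, with lines joining the libraries of a gilt. Lines go up to GE in gilts 4, 6 and 13 for every gene shown, and in gilt 2 (circles) the lines are flat or go down for DNAH11, CCDC39 and CCDC40.

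The list of glandular identity genes was only partly informative. Of 20 genes, 7 were in both tables with a median difference of 0.25, 2 with a p value below 0.05 towards GE and 1 towards LE. Without gilt 2 there were 3 and 1 (median 0.12), without gilt 4 there were 2 and 0 (median 0.34), and without gilt 13 the median was 0.38. ALDH1A1, which makes retinoic acid, had 259, 341, 124 and 640 CPM in GE and 14.9, 5.51, 17.5 and 4.27 CPM in LE (4.96 ± 0.82, FDR = 0.0208 in the 16-library fit). It had the largest difference among all list members, with no overlap. SOX17 lay at 141 to 310 CPM in GE and 296 to 408 CPM in LE (−0.57 ± 0.27). FOXA2, the forkhead factor needed for gland formation, is listed for GE without LE at 16.8, 61.5, 41.9 and 80.5 CPM, and so are LIF and SPDEF, while LGR5 is listed for LE without GE (30.5 ± 17.4 CPM, SD over 4 libraries).

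For the 30 luminal identity genes the direction was the reverse. Of the 16 in both tables, 12 had the sign of LE (median −1.42), 9 with a p value below 0.05 towards LE and 0 towards GE. Without gilt 4 there were 4 such genes and without gilt 2 there were 6, beside 3 towards GE. SLC24A4, a sodium, calcium and potassium exchanger, was abundant in both compartments at 780 to 2657 CPM in GE and 1128 to 1701 CPM in LE (0.32 ± 0.36). HPGD, which degrades prostaglandins, had 628, 630, 786 and 793 CPM in LE and 137, 109, 550 and 46.5 CPM in GE (−2.33 ± 0.60). The calcium channel TRPV6 (−2.92 ± 0.71), the lysophosphatidic acid receptor LPAR3 (−1.16 ± 0.41), the galectin LGALS3 (−1.25 ± 0.25) and the cytokine IL24 (−3.37 ± 1.05) were among the other genes on the LE side. WNT7A and UPK3A are listed for LE without GE at 12.2 ± 3.26 and 13.5 ± 3.78 CPM.

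Simple epithelial keratins and junction proteins had the sign of LE in 19 of 20 shared epithelial markers (median −0.72), and 8 of them had a p value below 0.05 with no overlap. KRT8 was at 1170, 1017, 1081 and 949 CPM in LE and at 202, 375, 685 and 330 CPM in GE (−1.54 ± 0.33). KRT7 (−2.79 ± 0.61) and KRT18 (−1.53 ± 0.33) showed the same order. CDH1, E-cadherin, had 866 to 1056 CPM in LE and 231 to 746 CPM in GE (−0.92 ± 0.35). EPCAM (0.01 ± 0.43) and CLDN3 (−0.04 ± 0.38) were in the same range in both. Without gilt 2, whose GE library had the most fibroblast marker counts, the median of this list was −0.28, with 8 members below a p value of 0.05 on the LE side and 1 on the GE side, and without gilt 4 there were 5 on the LE side. CLDN8 (−2.15 ± 0.48) and NECTIN4 (−2.88 ± 0.56) were the junction genes with the largest differences to LE, and CGNL1, a junctional adaptor, went the other way (1.16 ± 0.23). TJP1 was at 407 to 759 CPM in GE and 725 to 918 CPM in LE. Over the 25 joined junction genes 5 had a p value below 0.05 towards LE and 1 towards GE (median −0.22), which became 4 and 3 without gilt 2 (median 0.02) and 3 and 1 without gilt 4 or gilt 13.

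Apical cytoskeleton genes followed LE in 9 of 11 cases (median −0.86), with 5 below a p value of 0.05 towards LE and 1 towards GE. Without gilt 4 these were 3 and 0. The median was −0.50 without gilt 2 and −0.55 without gilt 13. PLS1, a plastin that bundles actin in microvilli, had 2169, 2044, 2313 and 1981 CPM in LE and 314, 453, 1621 and 315 CPM in GE (−2.06 ± 0.44). GE of gilt 6 thus held several times the level of the other GE libraries. TUBA1A, at 519 to 881 CPM in GE and 421 to 565 CPM in LE, shares 50.4% of its 50-base exon windows with other tubulin genes and is uncertain. MYO6, a myosin of endocytosis, was on the GE side at 180 to 594 CPM, against 101 to 135 CPM in LE (1.59 ± 0.45). PDZK1 and ANKS4B, also of the brush border, are listed for GE without LE. Of the 33 basement membrane and matrix receptor genes, 6 were below 0.05 towards LE and 3 towards GE (median −0.67), and the number towards LE was 18 without gilt 2, 2 without gilt 4 and 3 without gilt 13. The hemidesmosomal integrin ITGB4 (−1.13 ± 0.20) was on the LE side, as was COL17A1, whereas LAMA3 (2.46 ± 0.44), ITGAV (1.57 ± 0.30) and DAG1 (0.92 ± 0.22) were on the GE side. HSPG2 (219 to 2129 CPM in GE) and COL4A1 (199 to 2769 CPM in GE), the most abundant of this list, were highest in GE of gilt 2 and lowest in GE of gilt 13.

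Transport genes split by compartment. Of 34 joined solute carrier genes, 11 had a p value below 0.05 towards GE and 7 towards LE (median 0.36), and 8 and 5 passed 5% FDR in the 16-library fit. The counts below 0.05 were 14 and 7 without gilt 2 and 9 and 5 without gilt 4. SLC12A2, the sodium, potassium and chloride cotransporter that loads secretory cells with chloride, was at 575, 2698, 1331 and 3201 CPM in GE and 320, 315, 367 and 257 CPM in LE (2.37 ± 0.53). The zinc transporters SLC30A2 (3.75 ± 0.62) and SLC39A2 (3.12 ± 0.73), the peptide transporter SLC15A2 (3.15 ± 0.54), the cationic amino acid transporter SLC7A2 (4.34 ± 0.74), the taurine transporter SLC6A6 (2.52 ± 0.52) and the glucose transporter SLC5A1 (2.10 ± 0.40) were likewise on the GE side. On the LE side stood the cystine transporter subunit SLC7A9 (−3.30 ± 0.73), the glucose transporters SLC2A8 (−2.63 ± 0.61) and SLC2A3 (−2.12 ± 0.52) and the sodium proton exchanger SLC9A2 (−1.83 ± 0.35). For SLC7A9 the levels were 344, 209, 178 and 186 CPM in LE and 23.7, 23.2, 88.3 and 4.46 CPM in GE.

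Ion channels and pumps had the opposite balance, with 10 of 21 joined genes below a p value of 0.05 towards LE and 1 towards GE (median −0.96). Without gilt 4 the number towards LE was 6 and the median −0.56. All 3 subunits of the epithelial sodium channel were on the LE side, namely SCNN1A (−1.43 ± 0.24), SCNN1B (−2.64 ± 0.81) and SCNN1G (−2.42 ± 0.55), and their libraries did not overlap. SCNN1A had 115, 133, 164 and 121 CPM in LE and 24.9, 54.0, 87.5 and 46.8 CPM in GE. KCNJ15, an inwardly rectifying potassium channel, was at 65.2 to 96.8 CPM in LE and 0.56 to 63.5 CPM in GE (−3.02 ± 0.88). The beta subunits of the sodium pump ATP1B1 and ATP1B3 (−1.12 ± 0.19) did not overlap between compartments. CLCN3 lay at 140 to 624 CPM in GE and 191 to 302 CPM in LE. Of this list, 5 genes are listed for GE without LE, namely the water channel AQP3 (50.2 ± 35.6 CPM, SD), FXYD2, KCNK5, KCNJ16 and KCNQ1. Listed for LE without GE are FXYD4 (52.5 ± 23.9 CPM) and KCNN4. KCNN4 had 1.52 CPM in LE of gilt 2 and 0 CPM in LE of the other cyclic gilts.

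**Figure D4:**
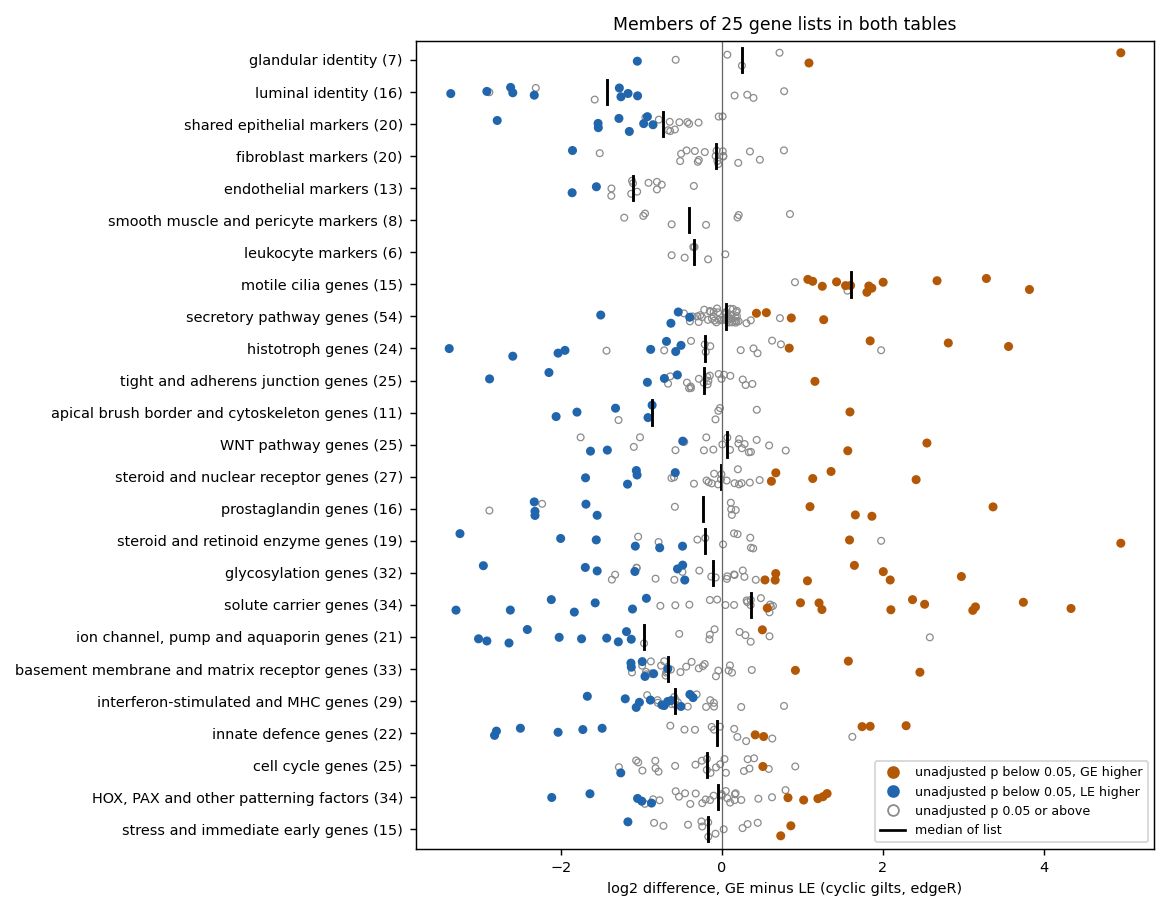
Fitted log2 difference (GE minus LE) of the members of 25 gene lists, with the number of joined members in brackets, the list median as a bar, and members at an unadjusted p value below 0.05 filled. The 15 motile cilia genes all lie right of 0, 19 of 20 shared epithelial markers lie left of it, and secretory pathway genes centre on 0 (median 0.05).

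Few genes of the general secretory machinery were below 0.05. Of 54 secretory pathway genes, 4 had a p value below 0.05 towards GE and 4 towards LE (median 0.05), against 11.3% and 11.6% of all genes. Without gilt 4 there were 2 and 1, without gilt 13 also 2 and 1, and without gilt 6 there were 6 and 2. The abundant members TMED10 (809 to 1176 CPM in GE and 880 to 1114 CPM in LE) and CANX (684 to 944 and 812 to 898 CPM) were in the same range. XBP1 (0.87 ± 0.24) and CREB3L1 (1.27 ± 0.24), transcription factors of secretory cells, were on the GE side. The 4 members below 0.05 towards LE are not named here, so these 2 do not stand for the list. Among 24 histotroph genes in both tables, 4 were below 0.05 towards GE and 8 towards LE (median −0.20). Without gilt 4 these were 2 and 2, and without gilt 13 they were 3 and 5. ACP5 had 652, 2191, 1046 and 3020 CPM in GE and 189, 168, 357 and 160 CPM in LE (2.82 ± 0.57). CLU, clusterin, was at 287, 644, 258 and 539 CPM in GE and 29.7, 17.4, 56.9 and 41.7 CPM in LE (3.56 ± 0.52). Both genes separated the compartments completely. TIMP2, an inhibitor of metalloproteinases, was at 1065 to 3312 CPM in GE and 886 to 1328 CPM in LE (0.74 ± 0.36). On the LE side were FGF7, a growth factor for the trophectoderm, with 701, 418, 283 and 1012 CPM in LE and 177, 131, 201 and 76.6 CPM in GE (−1.95 ± 0.53), the protease inhibitor PTI (−3.39 ± 1.15), the polymeric immunoglobulin receptor PIGR (−2.03 ± 0.45) and STC1 (−2.60 ± 0.96). UABP-2, uteroferrin associated basic protein, is listed for GE without LE at 410, 241, 108 and 881 CPM.

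Glycosylation enzymes differed by member. Of 32 joined genes, 8 had a p value below 0.05 towards GE and 7 towards LE (median −0.10), and 4 each way passed 5% FDR in the 16-library fit. Without gilt 4 there were 6 and 2. The sialyltransferases ST6GAL1 (2.98 ± 0.39) and ST6GALNAC2 (2.01 ± 0.25) and the enzymes that start mucin type O-glycans GALNT4 (2.09 ± 0.34) and GALNT1 (1.65 ± 0.40) were on the GE side. GALNT1 had 268, 840, 299 and 889 CPM in GE and 157, 160, 169 and 146 CPM in LE. GCNT1, which branches such glycans, was at 330, 498, 717 and 354 CPM in LE and 33.9, 67.6, 539 and 8.63 CPM in GE (−2.96 ± 0.83), and GALNT3 was also on the LE side (−1.69 ± 0.28). For GCNT1 the GE library of gilt 6 lay within the range of LE.

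Prostaglandin genes were distributed over both compartments, with 4 of 16 joined genes below 0.05 towards GE and 5 towards LE (median −0.23). Without gilt 2 there were 4 and 6 (median −0.68), and without gilt 13 there were 4 and 7 (median −0.22). On the LE side were synthesis enzymes, namely PLA2G4A, which releases arachidonic acid (−1.69 ± 0.36), the synthases PTGES (−2.32 ± 0.68) and AKR1B1 (−2.32 ± 0.53), and the degrading enzyme HPGD. PTGS2, the inducible cyclooxygenase, had 670, 345, 271 and 604 CPM in LE and 123, 83.2, 115 and 0.28 CPM in GE (−2.89 ± 1.29, FDR = 0.253). Its libraries did not overlap, but GE of gilt 13 was below the floor of 3 counts. PTGER2, a receptor of prostaglandin E2, was on the GE side with 179, 267, 203 and 804 CPM in GE and 74.7, 81.3, 113 and 112 CPM in LE (1.66 ± 0.35), together with the carriers SLCO3A1, SLCO2A1 (1.10 ± 0.21) and SLCO4C1 (1.87 ± 0.45).

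In the steroid and retinoid enzyme list, 2 of 19 joined genes were below 0.05 towards GE and 6 towards LE (median −0.20). Without gilt 4 there were 2 towards LE, and without gilt 2 or gilt 13 there were 4. The median was −0.01 without gilt 2 and −0.38 without gilt 6. RBP4, the retinol carrier, had 379, 1448, 447 and 2150 CPM in GE and 780, 137, 84.4 and 374 CPM in LE (1.98 ± 0.81), and in gilt 2 it was lower in GE than in LE. CYP26A1, which degrades retinoic acid (−3.25 ± 1.13), LRAT (−1.56 ± 0.58) and RDH10 (35 to 352 CPM in GE, 138 to 361 CPM in LE) were on the LE side, opposite to ALDH1A1. Nuclear receptors showed 5 of 27 towards each side, and without gilt 4 they showed 3 towards GE and 1 towards LE, and without gilt 13 4 and 3. ESR1, the oestrogen receptor alpha, was at 314, 655, 563 and 396 CPM in GE and 476, 404, 472 and 427 CPM in LE (0.06 ± 0.25), and PGRMC1 at 243 to 1072 CPM in GE and 344 to 541 CPM in LE (0.47 ± 0.44). The orphan receptor NR4A2 (2.42 ± 0.34) was on the GE side, and RARA (−1.17 ± 0.33) and RARG (−1.69 ± 0.60) on the LE side.

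The WNT pathway list had 2 of 25 genes below 0.05 towards GE and 3 towards LE (median 0.07), near the shares of all genes (11.3% and 11.6%). Without gilt 2 there were 4 and 7 (median −0.19), and without gilt 4 there were 2 and 0. LEF1, a transcriptional effector of the pathway, had 419, 823, 688 and 1841 CPM in GE and 125, 80.4, 237 and 157 CPM in LE (2.55 ± 0.44). TCF7 (1.57 ± 0.30) had the same sign and TCF7L2 (−1.63 ± 0.46) and the ligand WNT5A (−1.42 ± 0.52) the opposite. LGR4, a receptor for R-spondins, was at 307 CPM in GE of gilt 2 and 756 to 835 CPM in the other GE libraries, compared with 580 to 866 CPM in LE. Among patterning factors, 5 of 34 had a p value below 0.05 on each side (median −0.05), also near the shares of all genes. These were 8 and 5 without gilt 2 and 4 and 2 without gilt 4. PAX2 (−1.64 ± 0.41) and EYA2 (−2.11 ± 0.49), which act together in the urogenital tract, were on the LE side, and FOXP1 (1.20 ± 0.20), KLF6 (1.26 ± 0.23) and SOX4 (0.82 ± 0.16) on the GE side. FOXO1 was at 262 to 598 CPM in GE and 219 to 309 CPM in LE.

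Interferon-stimulated and antigen presentation genes had the sign of LE in 27 of 29 joined members (median −0.58), 12 with a p value below 0.05 towards LE and 0 towards GE. Without gilt 4 there were 2 towards LE, and without gilt 13 there were 5, beside 1 towards GE. IFITM1 (−1.67 ± 0.37) and IFITM3 (−1.20 ± 0.21) passed 5% FDR in the 16-library fit, whereas OAS2 (−1.06 ± 0.36), DDX58 (−1.02 ± 0.31) and MX1 (−0.89 ± 0.23) did not. LE of gilt 4 held the highest levels of MX1 (275 CPM, against 111 to 155 CPM in the other LE libraries). B2M had 916 to 1308 CPM in GE and 1293 to 1758 CPM in LE, and shares 34.7% of its 50-base exon windows with another annotated copy. Of the innate defence genes, 5 of 22 were below 0.05 towards GE and 6 towards LE (median −0.06). Without gilt 4 there were 3 on each side, and without gilt 13 there were 3 and 5. CD59, an inhibitor of complement lysis, was on the GE side with 255, 196, 127 and 335 CPM in GE and 48.4, 39.4, 60.1 and 32.5 CPM in LE (2.29 ± 0.38), as were C4A and C3 (1.84 ± 0.60). S100A6 had 268 to 354 CPM in LE and 75.2 to 158 CPM in GE (−1.49 ± 0.25), the chemokine CXCL16 227 to 319 CPM in LE and 11.4 to 178 CPM in GE (−2.50 ± 0.61), and the defensin DEFB1 89.7 to 157 CPM in LE and 3.62 to 86.6 CPM in GE (−2.82 ± 0.78).

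Few cell cycle genes had a p value below 0.05, and stress genes had one about as often as all genes (22.9%, both directions together). Of 25 cell cycle genes, 1 was below 0.05 on each side (CCND1 towards GE, 0.51 ± 0.18, and MCM2 towards LE, −1.25 ± 0.51), and CDKN1B was at 112 to 232 CPM in GE and 157 to 172 CPM in LE. Without gilt 2 there were 7 cell cycle genes towards LE and 0 towards GE, and without gilt 13 there were 0 on either side. Of 15 stress and immediate early genes, HSPB1 and DUSP1 were below 0.05 towards GE and FOS towards LE (−1.17 ± 0.20), where there were 2 genes without gilt 2 or gilt 6. HSPA8 (991 to 1365 CPM in GE, 1370 to 1833 CPM in LE) and HSPH1 (0.02 ± 0.13) were the most abundant. Among markers of other cells the fibroblast list had 1 gene (POSTN) and the endothelial list 2 genes (KDR and PLVAP) below 0.05, all towards LE, with medians of −0.07 and −1.10. COL3A1 (1496 to 17522 CPM in GE, 3874 to 7229 CPM in LE), COL1A1 (797 to 12914 and 3417 to 4136 CPM), KDR (12.0 to 140 and 213 to 392 CPM), VWF (16.4 to 252 and 136 to 229 CPM), ACTA2 (3.90 to 3889 and 36.9 to 75.2 CPM) and MYH11 (8.63 to 2794 and 38.5 to 568 CPM) spread more widely over GE than over LE on the log scale, with gilt 2 the highest and gilt 13 the lowest in each. The 13 joined endothelial markers all had the sign of LE. The median of the smooth muscle list was −0.41. Without gilt 2 the medians of the fibroblast, endothelial and smooth muscle lists were −0.72, −1.63 and −1.52, with 1, 9 and 5 members below 0.05 towards LE, whereas without gilt 13 they were 0.45, −0.43 and 0.35, with 1, 2 and 0 such members. The sign of the fibroblast and smooth muscle lists thus turned with the gilt left out. CD74 (76.6 to 437 CPM in GE, 175 to 346 CPM in LE) and LAPTM5 (41.8 to 64.6 and 57.2 to 90.1 CPM) were the most abundant leukocyte markers, of which 0 of 6 were below 0.05, and 2 towards LE without gilt 2.

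Genes listed for 1 epithelium could not be compared by a test, since the other table does not list them and their counts there are unknown. The third-highest library of a gene, pregnant gilts included, was never below 6.91 CPM in the GE table, so absence from a table says that a gene was below about this level in most of its libraries. Of the 825 genes listed for GE without LE, 481 are also in the S table, as are 247 of the 564 listed for LE without GE. Their levels were mostly low (median 9.11 CPM in GE and 7.94 CPM in LE, against 39.8 and 37.9 CPM for joined genes). The most abundant for GE were ADAMTS18, a secreted metalloproteinase (213, 604, 261 and 745 CPM), UABP-2, RFX6, a transcription factor of endocrine and gut cells (49.9, 436, 113 and 344 CPM), MGP, LOC106509981, CES3, LOC100153854 (an amylase), ACTG2, CDH6 and LOC100158115. MGP (430 CPM in gilt 2 and 3.18 to 31.3 CPM in the others) and ACTG2 (384 CPM and 0 to 10.1 CPM), genes of smooth muscle,, were high in the library of gilt 2 alone. LOC100153854 shares 95.2% of its 50-base exon windows with other amylase genes and LOC100158115 48.5% with other thioesterase genes. For LE the list began with LOC100738087 (68.8 ± 12.5 CPM), the phosphatase SGPP2 (66.8 ± 23.3), COCH (63.5 ± 29.2), DIRAS2 (63.5 ± 41.5), the tetraspanin TSPAN8 (61.1 ± 35.0), LOC106509010, FXYD4, LOC100524016 (annotated as mesothelin), the carbonic anhydrase related CA8 and PNPLA3. DIRAS2 overlaps a gene on the opposite strand with 66.6% of its exon bases.

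Differences were then followed in the 4 pregnant gilts, which share no library with the cyclic ones. There the same fit gave 2958 genes at 5% FDR (27.3%), 1406 higher in GE (13%) and 1552 higher in LE (14.3%). Of the 1229 genes with a p value below 0.05 towards GE in cyclic gilts, 88.8% had the same sign in pregnant gilts and 53.3% also passed 5% FDR there. Of the 1258 genes towards LE these shares were 82.2% and 41.6%, compared with 70.6% and 23.4% of all joined genes. All 12 leading GE genes were higher in GE of pregnant gilts at 5% FDR, from ELL2 (0.96 ± 0.26) to LOC110255743 (3.89 ± 0.42). Of the 12 leading LE genes, 6 were higher in LE of pregnant gilts at 5% FDR (COL17A1, COPS9, MMD, SMPD1, TMEM35A and SDCBP2), while ATP1B1 had the opposite sign (0.24 ± 0.32) and PPARGC1B was near 0 (−0.11 ± 0.26). Of the 15 joined cilia genes, 15 passed 5% FDR towards GE in pregnant gilts with a median of 2.17. For luminal identity genes it was 9 of 16 towards LE and 2 towards GE. Medians in pregnant gilts were −0.44 for shared epithelial markers and −0.54 for interferon-stimulated and antigen presentation genes, both still towards LE. Not every list kept its median. For ion channels and pumps it was 0.04, against −0.96 in cyclic gilts, with 7 genes towards LE and 3 towards GE at 5% FDR.

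Whether the difference between GE and LE itself changed with pregnancy was tested as an interaction over the 16 libraries. At 5% FDR 153 genes were found (1.41%), 68 with a difference shifted to GE in pregnant gilts (0.627%) and 85 shifted to LE (0.783%), and 0 of the 24 leading genes were among them. This number was unstable, with 0 genes without gilt 4, 32 without gilt 6, 47 without gilt 1, 12 without gilt 3 and 15 without gilt 5. The 6 genes of lowest p value were GAB1, HUNK, IFNAR2, TNIK, PCK2 and NUPR1, each at an FDR of 0.0102. IFNAR2, a subunit of the type I interferon receptor, was in the same range in cyclic GE (20.5 to 27.7 CPM) and LE (23.3 to 36.9 CPM), and in pregnant gilts it had 161, 255, 262 and 167 CPM in LE of gilts 1, 3, 5 and 14 and 38.2, 50.9, 54.2 and 39.0 CPM in GE (interaction −1.98 ± 0.21). GAB1, a docking protein of receptor tyrosine kinases, had 53.6 to 77.1 CPM in cyclic LE and 348 to 724 CPM in pregnant LE, with 70.1 to 129 CPM in cyclic GE and 116 to 147 CPM in pregnant GE (−2.30 ± 0.23). TNIK, a kinase of WNT signalling, went the other way, since LE held 80.0 to 109 CPM in cyclic and 9.28 to 17.3 CPM in pregnant gilts (3.34 ± 0.36). The kinase HUNK (−2.60 ± 0.28), the mitochondrial enzyme PCK2 (−4.58 ± 0.52) and the stress protein NUPR1 (−3.54 ± 0.40) were higher in GE of the cyclic gilts and higher in LE of the pregnant gilts. For PCK2 the cyclic LE libraries lay at 0.76 to 1.19 CPM, near the floor.

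**Figure D5:**
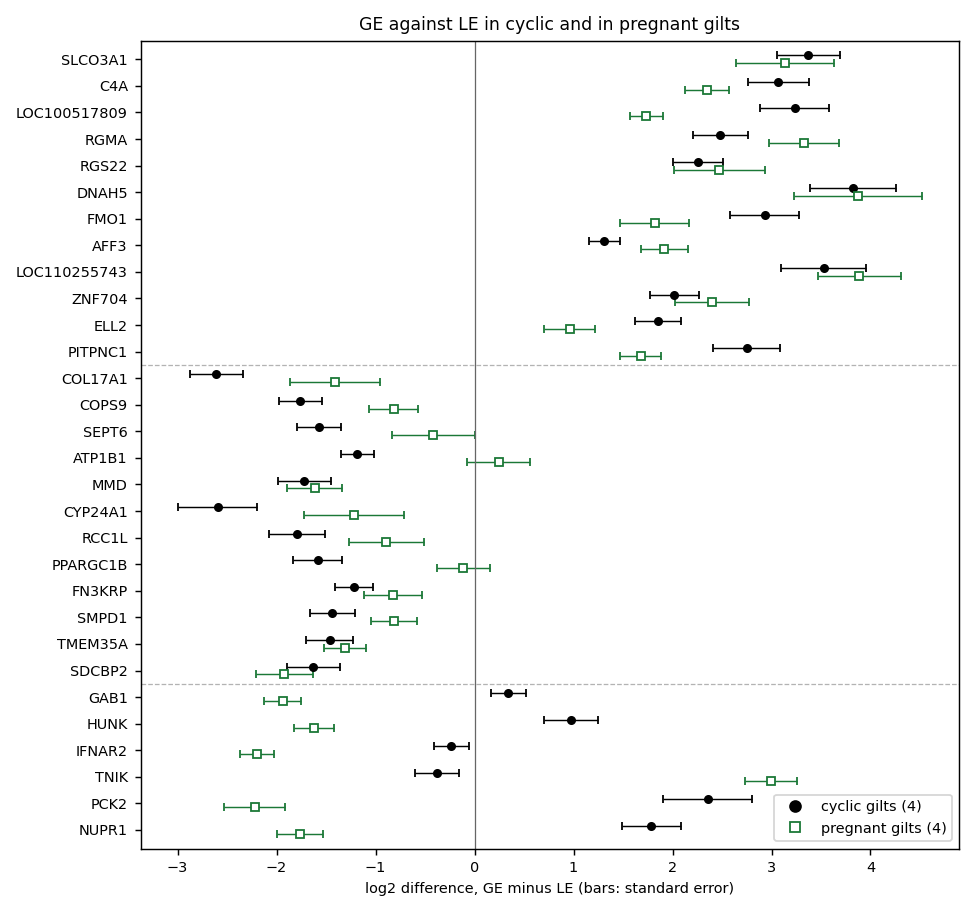
Log2 difference between GE and LE with its standard error in cyclic gilts (filled circles) and in pregnant gilts (open squares) for the 12 leading GE genes (top), the 12 leading LE genes (middle) and the 6 genes of lowest interaction p value (bottom). The GE genes lie on the same side in both groups of gilts, ATP1B1 changes side, and HUNK, PCK2, NUPR1, GAB1 and TNIK are on opposite sides in the 2 groups of gilts.

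Among genes described above, CLU, SLC5A1, PTGER2, PAX2, SLC24A4 and LAPTM5 were also among those that passed the interaction test. SLC5A1 was higher in GE of cyclic gilts (121 to 500 CPM, against 33.5 to 135 CPM in LE) and in pregnant gilts had 541 to 1586 CPM in LE and 89.4 to 376 CPM in GE (−4.43 ± 0.52, FDR = 0.0109). CLU had 238 to 2397 CPM in pregnant LE and 167 to 291 CPM in pregnant GE (−4.91 ± 0.78). SLC24A4 was at 1.49 to 38.01 CPM in pregnant LE and 500 to 1358 CPM in pregnant GE, against similar levels in both compartments of the cyclic gilts (6.67 ± 1.17). PTGER2 had 5.80 to 16.03 CPM in pregnant LE and 252 to 886 CPM in pregnant GE (4.12 ± 0.68).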

How the data were processed

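RNA of GE and LE was measured by RNA-seq in 22 libraries of which 8 are compared here. The authors mapped single reads with Hisat2 to Sscrofa11.1, removed duplicates by the random bases of the kit and deposited raw counts per gene and compartment after a filter on low CPM. The submitters' notes name edgeR. The counting tool and its strand setting are not given in the sources used here. The tables hold counts alone, and 0 columns belong to other series.

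Tables were joined by gene ID and tested with edgeR 4.0.16 (R 4.3.3), using TMM factors, the counts of each library in its own table as library size, the gilt as block and an FDR of 0.05. By the labels, a shared gilt number marks 1 animal. Deviations from the compartment means correlated at 0.0592, 0.196, 0.231 and 0.0544 within gilts 2, 4, 6 and 13, against a median of −0.0159 between gilts. limma 3.58.1, DESeq2 1.42.0, other scalings, filters and blocks and leaving out each gilt were alternatives. The scripts were tested on simulated data. Sequences were read from the RefSeq genome and annotation of Sscrofa11.1 with pysam 0.24.0.

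The genes named by rule are, for each direction, the 12 of lowest p value with the same sign in 4 of 4 gilts (none passed the FDR), the 2 most abundant members of each of 25 gene lists, the 10 most abundant genes listed for 1 epithelium and the 6 of lowest interaction p value. Other list members were named after their values were seen. Some genes that this rule names are not reported here. The comparison and the lists were chosen with earlier results of these data known. Where labels do not separate tissue samples further, p-values measure the spread between 4 gilts. Standard errors were derived from the same fits, as the absolute log2 difference divided by the square root of the F statistic. They include the spread between gilts, while floors cover counting error only.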

Additional observations from a re-analysis of the deposited data

Results flagged for a closer look

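In 19 of 222 groups of 4 cyclic libraries, 1 library lay so far from the other 3 that its gap, divided by the range of the group, exceeded Dixon's critical value. The critical value is set so that about 5% of groups of independent normal values exceed it. The values here were CPM without log transformation, and some groups share genes, so the count cannot show an excess over chance. Of the 19 flagged groups, 11 were in GE, 6 of them in GE of gilt 2, and 8 in LE. In GE of gilt 2 the ratio was 0.969 for ACTA2, 0.940 for MYH11, 0.934 for MGP, 0.974 for ACTG2 and 0.946 for the summed smooth muscle and pericyte markers, all high, and 0.850 for LGR4, which was low. In GE of gilt 6 it was 0.964 for MMD, 0.893 for PLS1, 0.841 for RDH10 and 0.889 for GCNT1, all high and towards the level of LE, and in GE of gilt 4 it was 0.928 for GAB1. In LE of gilt 2 it was 0.874 for RGS22 and 0.929 for RFX3, both low, and 0.930 for KDR, 0.855 for the summed shared epithelial markers and 0.933 for the summed histotroph genes, which were high. In LE the ratio was 0.882 for TNIK in gilt 6, 0.916 for B2M in gilt 4 and 0.893 for PNPLA3 in gilt 13.

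The difference between GE and LE was not the same in pregnant and cyclic gilts by the interaction test of edgeR for GAB1 (−2.30), HUNK (−2.60), IFNAR2 (−1.98), TNIK (3.34), PCK2 (−4.58) and NUPR1 (−3.54), each at an FDR of 0.0102, and for SLC24A4 (6.67, FDR = 0.0329) and the leukocyte marker LAPTM5 (−1.76, FDR = 0.0423). No gene passed this test without gilt 4.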

How the results depend on the processing

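The count of 0 genes at 5% FDR in cyclic gilts was 259 with no replicate block (1791 against 2958 in the pregnant gilts), 310 with the gilt as a random block, 1171 by the likelihood ratio test, 1117 by DESeq2 and 813 in the 16-library fit. It was 0 with other scalings, with both filters, with voom and a fixed block, at an FDR of 0.01 or 0.10 and without each gilt. Alternatives for the counts at an unadjusted p value, for genes without overlap and for pregnant gilts were chosen after seeing the data. Leaving out 1 gilt gave 1205 to 2948 genes at p below 0.05, 1138 to 1989 and 1162 to 1914 genes without overlap towards GE and LE, 1597 to 2759 genes in pregnant gilts and 0 to 206 for the interaction, which had 626 by DESeq2 and 398 at an FDR of 0.10.

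Named genes that passed no test changed sign under some settings. Leaving out 1 gilt gave a range of −0.65 (without gilt 2) to 0.64 for COL3A1, −0.70 to 0.63 (without gilt 13) for COL1A1, −1.22 (without gilt 2) to 1.72 for ACTA2, which was −0.70 without gilt 4, and −2.17 to 0.37 (without gilt 13) for MYH11. It gave −0.12 to 0.093 (without gilt 2) for TMED10, which was 0.0059 without gilt 6, −0.24 to 0.16 (without gilt 2) for LGR4, −0.12 (without gilt 4) to 0.28 for ESR1 and −0.98 to 0.064 (without gilt 13) for COL4A1. For CDKN1B it gave −0.065 (without gilt 4) to 0.27, with −0.0076 without gilt 6, and for HSPH1 −0.0052 (without gilt 2) to 0.063. Scaling by library size gave COL3A1 −0.039, CDKN1B −0.0087 and HSPH1 −0.036. With no replicate block COL1A1 was 0.51, MYH11 1.66 and COL4A1 0.19, and with voom COL3A1 was −0.035 and MYH11 0.023. The cause was not tested. With 4 gilts and small amounts of RNA, genes of a few CPM rest on few counts, and genes in 1 table could not be tested.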
